A study of Mus musculus with 9 samples.

Results

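Of the 9 brain RNA libraries of this series, 6 came from injured tissue, and 3 of those 6 carried high levels of genes typical of the thalamus. These 3 thalamus-high libraries were TBI 3 and, of C-β-LG/DSF, libraries 2 and 3. The other 3 injured libraries, TBI 1, TBI 2 and C-β-LG/DSF 1, formed the thalamus-low set. The libraries were selected on the measured levels of 4 marker genes, Tcf7l2, Prkcd, Slc17a6 and Lef1, in these same libraries. They therefore describe tissue content and not a treatment, and every difference between them is given as a description with no test. The mean of the 4 markers on the log2(FPKM + 0.5) scale, relative to the Sham mean, was 2.67 in TBI 3, 2.4 in C-β-LG/DSF 2 and 1.82 in C-β-LG/DSF 3, against 0.42 in TBI 1, 0.53 in TBI 2 and 0.38 in C-β-LG/DSF 1. The libraries nearest to the boundary were C-β-LG/DSF 3 on the inside and TBI 2 on the outside.

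Mouse brain RNA was sequenced in 3 labelled groups of 3 libraries each. C-β-LG/DSF mice received a nanoparticle preparation of that name by tail vein after a traumatic brain injury (TBI), TBI mice received the injury from a falling weight, and Sham mice had the skull drilled and the dura opened with the brain left undamaged. Tissue was taken at the injured site or at the matching site in Sham. The sources used here give no strain, age, sex, dose or time after injury, nor do the labels say whether libraries came from separate animals, so p-values measure only the spread between these libraries. The sets cross the labels only in part: thalamus-high holds 1 TBI and 2 C-β-LG/DSF libraries, and thalamus-low holds 2 TBI and 1 C-β-LG/DSF library.

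The thalamus relays sensory and motor signals to the cortex through glutamatergic neurons that load transmitter with the vesicular transporter of Slc17a6, whereas most cortical and hippocampal excitatory neurons use that of Slc17a7. Tcf7l2 and Lef1 encode transcription factors that act with β-catenin in Wnt signalling, and Tcf7l2 remains active in adult thalamic neurons. The thalamus lies below the hippocampus, next to the habenula, above the hypothalamus and in front of the midbrain, so a deep piece of brain can hold several of these regions.

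Values are FPKM, fragments scaled to gene length and library size. The number of fragments is not given, so no counting interval could be set; relative depths estimated from the lowest values were 0.94 to 1.09 of Sham 1. Between 12566 and 13312 genes per library reached an FPKM of 1. Across genes, which are not independent replicates, the correlation between libraries was 0.991 to 0.994 within thalamus-high, 0.984 to 0.993 within thalamus-low and 0.974 to 0.993 between the sets. In what follows the thalamus-high values are in the order TBI 3, C-β-LG/DSF 2, C-β-LG/DSF 3, and the thalamus-low values in the order TBI 1, TBI 2, C-β-LG/DSF 1. Differences are of mean log2(FPKM + 0.5), thalamus-high minus thalamus-low unless another pair is named, and the added 0.5 understates them for genes of low level.

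The 4 markers did not separate the sets equally well. Tcf7l2 (chromosome 19, 55741810 to 55933654) stood at 24.4, 22.7 and 11.9 FPKM in thalamus-high, 2.23, 2.12 and 1.66 FPKM in thalamus-low and 1.42, 1.44 and 1.44 FPKM in Sham. Slc17a6 (chromosome 7, 51622006 to 51671119) stood at 36.5, 36.4 and 21.6 FPKM in thalamus-high, 2.65, 5.38 and 6.06 FPKM in thalamus-low and 7.17, 6.85 and 6.94 FPKM in Sham. For both genes every thalamus-high library lay above all 6 others, with a difference of 2.96 for Tcf7l2 and 2.65 for Slc17a6, and the authors' interval around each thalamus-high value lay apart from those around the thalamus-low values. For Tcf7l2 the closest pair was C-β-LG/DSF 3, with 5.79 to 18 FPKM, and TBI 1, with 0.199 to 4.26 FPKM.

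Prkcd (chromosome 14, 30595354 to 30626210), which encodes protein kinase C delta, was less clear. Its level was 48.1, 24.1 and 16.3 FPKM in thalamus-high, 13.7, 12.8 and 8.31 FPKM in thalamus-low and 2.81, 4.08 and 2.86 FPKM in Sham, so the thalamus-low libraries also lay above all Sham libraries and the lowest thalamus-high value was close to the highest thalamus-low value. Lef1 (chromosome 3, 131110471 to 131224356) had 5.14, 5.15 and 4.76 FPKM in thalamus-high, 3.6, 2.77 and 3.05 FPKM in thalamus-low and 2.32, 2.74 and 2.12 FPKM in Sham, a difference of 0.61 with overlapping authors' intervals.

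**Figure D1:**
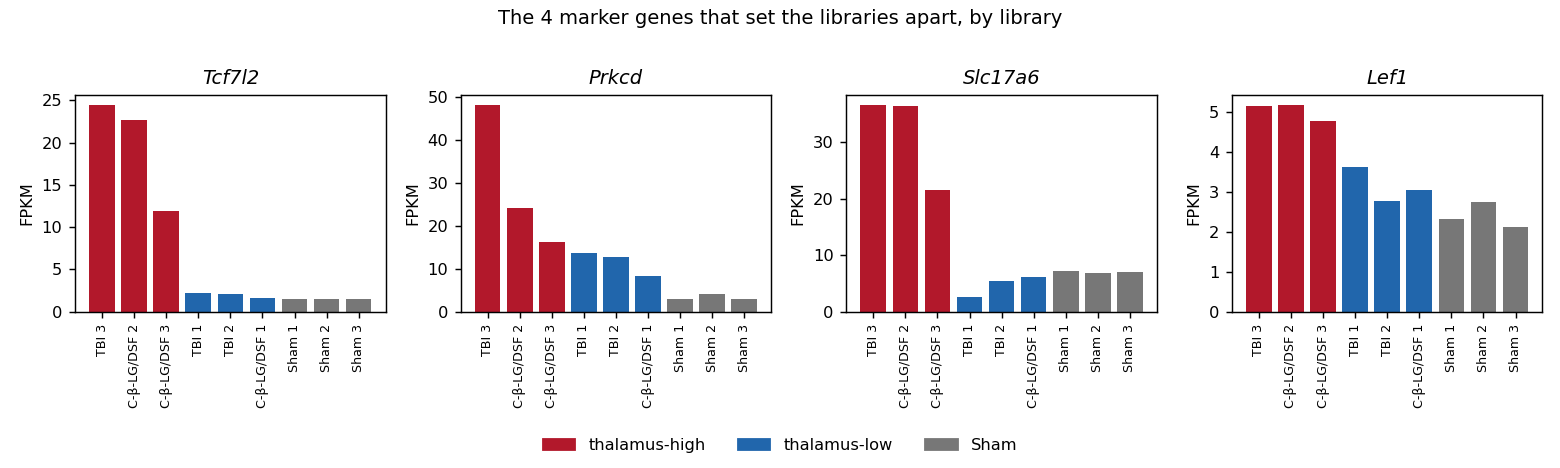
FPKM (vertical axis, from 0) of the 4 marker genes in each of the 9 libraries (bars), with thalamus-high left of thalamus-low and Sham. Tcf7l2 and Slc17a6 set the 3 thalamus-high libraries well apart, while Prkcd was 16.3 FPKM in C-β-LG/DSF 3 and 13.7 FPKM in TBI 1.

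Across the transcriptome, 205 of 14160 measured genes (1.45%) were at least 2-fold higher in thalamus-high with no overlap between the sets, and 65 (0.459%) were at least 2-fold lower. Most of the higher genes were at Sham level in thalamus-low: their median difference from Sham was 1.31 in thalamus-high and -0.02 in thalamus-low, in 159 of the 205 the thalamus-low and Sham ranges overlapped, and 93 had a mean FPKM under 1 in thalamus-low. The lower genes stood otherwise against Sham. Their median difference from Sham was 1.02 in thalamus-high and 2.13 in thalamus-low, and in 45 of the 65 all Sham libraries lay below all 6 injured libraries. TBI 1 was the highest of the 6 injured libraries in 61 of these 65 genes. By the way these genes were picked, that library had to be in thalamus-low. For the counts of 159, 93, 45 and 61 the share over all measured genes was not computed, so they are a description only. With no condition on size, 1722 genes (12.2%) were higher and 1649 (11.6%) lower without overlap, together 23.8%. In bulk tissue, fewer cells of a type and less RNA per cell cannot be told apart.

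Genes of thalamic relay neurons were higher in thalamus-high almost throughout the list. Of 20 listed genes, all measured and all with a positive difference, 18 did not overlap between the sets and 14 were at least 2-fold higher. The shares of all genes, 12.2% without overlap and 1.45% at 2-fold, are given for scale; since 4 of the 20 were used to make the sets, and the list was chosen with these values known, nothing further is read from the count. The median difference of the list was 1.36, against -0.02 over all measured genes.

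Shox2 (chromosome 3, 66971727 to 67358396, a deposited span that takes in Rsrc1), a homeobox gene of the developing thalamus, had the largest difference of all genes named here. Its level was 9.34, 9.55 and 4.4 FPKM in thalamus-high and 0.0942, 0.389 and 0 FPKM in thalamus-low, and it was listed at 0 in all 3 Sham libraries. Its exons overlap those of Rsrc1, on the other strand, so the value is uncertain unless reads were counted by strand. Gbx2, a homeobox gene required for thalamic development, had 6.17, 2.21 and 1.1 FPKM in thalamus-high and 0.0356, 0.0364 and 0 FPKM in thalamus-low, and was also listed at 0 in Sham. Both genes were thus near 0 in every library outside thalamus-high.

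Among the other relay genes, Calb2, which encodes the calcium buffer calretinin, had 67.5, 49.1 and 38.1 FPKM in thalamus-high, 5.99, 14.3 and 13.8 FPKM in thalamus-low and 7.19, 5.16 and 6.03 FPKM in Sham (difference 2.19). The differences were 1.89 for Synpo2, an actin-binding protein gene, 1.72 for the troponin gene Tnnt1, 1.61 for Slitrk6, 1.54 for the LIM homeobox gene Lhx9 and 1.5 for Ramp3, a receptor-activity modifying protein gene. Smaller differences were found in Rora (1.23), a nuclear receptor gene, Zic1 (1.18), Plekhg1 (1.04), the G protein regulator gene Rgs16 (0.91), Ntng1 (0.86), which encodes the axon guidance protein netrin-G1, and the RNA-editing enzyme gene Adarb1 (0.64). None of these 12 genes overlapped between the sets, but the authors' program marked 3 of the 6 Adarb1 values of the injured libraries as failed. Zic1 shares exon sequence with Zic4 on the other strand.

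The 2 relay genes that overlapped between the sets were Amotl1 (0.77) and Cacna1g (0.15). Cacna1g encodes the T-type calcium channel behind burst firing of relay cells, and had 21.3, 22.1 and 17.6 FPKM in thalamus-high, 20.5, 18.3 and 16.1 FPKM in thalamus-low and 20, 25.7 and 23 FPKM in Sham. The 3 groups overlapped for this gene.

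Not every relay gene was lower in Sham than in thalamus-high by the same margin. Ramp3 had 31.6, 16.7 and 9.64 FPKM in thalamus-high, 4.62, 6.73 and 6.23 FPKM in thalamus-low and 15.5, 13.8 and 16.1 FPKM in Sham, so Sham lay above thalamus-low and within the range of thalamus-high. Rora had 9.79, 8.77 and 5.83 FPKM in thalamus-high, 2.43, 3.6 and 3.4 FPKM in thalamus-low and 5.76, 6.89 and 6.38 FPKM in Sham, again with Sham above thalamus-low. Lhx9 showed the opposite order, with 3.93, 4.88 and 3.29 FPKM in thalamus-high, 0.919, 1.04 and 1.17 FPKM in thalamus-low and at most 0.0209 FPKM in Sham.

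The Slc17 transporters differed in opposite directions. Slc17a7 had 358, 521 and 575 FPKM in thalamus-high, 617, 776 and 887 FPKM in thalamus-low and 811, 832 and 865 FPKM in Sham, a difference of -0.66. No thalamus-high library reached the lowest thalamus-low value. Slc17a8, the third gene of the family, was below the expression filter and reached at most 0.60 FPKM in any library. Of 16 genes of telencephalic excitatory neurons, 15 had a negative difference, 11 without overlap (11.6% of all genes) and none of them 2-fold (0.459% of all genes), with a median of -0.50. They include the transcription factor genes Neurod2 (-0.85), Bhlhe22 (-0.79) and Emx1 (-0.73). Neurod2 had 15.8, 20.5 and 24.6 FPKM in thalamus-high, 43.9, 33.3 and 33 FPKM in thalamus-low and 36.7, 31.7 and 35.9 FPKM in Sham.

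Genes of the midbrain and brainstem were also higher in thalamus-high. The list mean relative to Sham was 1.28, 1.90 and 1.63 in thalamus-high, against 0.19, 0.13 and 0.03 in thalamus-low. That of the relay list was 2.19, 1.79 and 1.20 in thalamus-high. The midbrain list thus stood above the relay list in C-β-LG/DSF 2 and 3 and below it in TBI 3. The median difference of the measured midbrain genes was 1.86, against 1.36 for the relay list. Of 19 listed genes, 10 passed the filter, 9 of these 10 did not overlap (12.2% of all genes) and 8 were at least 2-fold higher (1.45% of all genes). A gene had to reach 0.5 FPKM in 3 injured libraries to pass, so this count favours genes present in thalamus-high. Slc6a3, Gata3, Sox14 and Barhl1 were under 0.5 FPKM in every thalamus-low library and so passed only through thalamus-high. Nothing is therefore read from the count. The thalamus-high libraries carried different parts of this list. Slc6a3 (chromosome 13, 73536747 to 73578672), the dopamine transporter, had 7.51, 0.744 and 19.8 FPKM in thalamus-high and 0.0731, 0.132 and 0.072 FPKM in thalamus-low. Th, the rate-limiting enzyme of dopamine synthesis, had 6.06, 1.92 and 13.5 FPKM in thalamus-high and 0.0803, 0.33 and 0.504 FPKM in thalamus-low. Both were highest in C-β-LG/DSF 3 and lowest within the set in C-β-LG/DSF 2.

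The serotonin genes showed another order. Slc6a4, the serotonin transporter, had 0.079, 9.74 and 0.192 FPKM in thalamus-high and 0.0725, 0.148 and 0.0711 FPKM in thalamus-low, and Tph2, the enzyme that starts serotonin synthesis in the brain, had 0.305, 8.59 and 0.437 FPKM in thalamus-high and 0.683, 0.476 and 0.334 FPKM in thalamus-low. C-β-LG/DSF 2 thus stood alone for both, with Sham at most 0.124 FPKM for Slc6a4 and 0.494 FPKM for Tph2. Because only 1 library was high, neither gene passed the filter, and both were chosen for mention after their values were seen. The transcription factor genes Otx2 and Barhl1 of the midbrain list were also highest in that library. Otx2 had 4.67, 8.41 and 4.24 FPKM in thalamus-high and 0.342, 0.769 and 0.0357 FPKM in thalamus-low, and Barhl1 had 0.528, 3.49 and 1.56 FPKM in thalamus-high and 0.216, 0 and 0.0235 FPKM in thalamus-low. Otx2 is on the choroid plexus list as well and its exons overlap Otx2os1.

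The remaining midbrain genes were lower in level. Gata3 had 0.928, 2.25 and 2.28 FPKM in thalamus-high and 0.12, 0.0698 and 0.0763 FPKM in thalamus-low, and Sox14 had 0.873, 2.26 and 1.3 FPKM in thalamus-high and 0, 0.0373 and 0 FPKM in thalamus-low; both encode transcription factors of inhibitory neurons. Gata3 was lowest within the set in TBI 3 and near equal in C-β-LG/DSF 2 and 3. The dopaminergic lineage genes Foxa1, Foxa2, Lmx1a and Lmx1b did not pass the filter, and the highest value of any of them in any library was 0.648 FPKM.

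Habenular genes were of low level, and C-β-LG/DSF 3 carried little of them: the list mean relative to Sham was 1.37 in TBI 3, 0.86 in C-β-LG/DSF 2 and 0.09 in C-β-LG/DSF 3, against -0.51, -0.27 and -0.32 in the thalamus-low libraries. Pou4f1, the POU homeobox gene of habenular neurons, had 1.51, 1.47 and 1.13 FPKM in thalamus-high and at most 0.0167 FPKM in thalamus-low. Of 10 listed genes 8 passed the filter, 4 of these were at least 2-fold higher without overlap (1.45% of all genes) and the other 4 overlapped. The 4 were Pou4f1 and the genes of cholinergic transmission Chrna3 (1.70), Chrnb3 (1.58) and Chat (1.35). All 4 were under 0.5 FPKM in every thalamus-low library and so passed the filter only through thalamus-high, which leaves nothing to read from their count. Gpr151, an orphan receptor gene of the habenula, had 8.08, 2.3 and 0.381 FPKM in thalamus-high and 0.675, 0.957 and 0.741 FPKM in thalamus-low, so C-β-LG/DSF 3 lay below all 3 thalamus-low libraries.

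Striatal and ventricular genes, and the hypothalamic gene Pmch, were higher in TBI 3 than in both other thalamus-high libraries. The mean of the 16 striatal genes relative to Sham was 1.77 in TBI 3, 0.46 in C-β-LG/DSF 2 and -0.19 in C-β-LG/DSF 3, against -0.83, -0.40 and 0.14 in the thalamus-low libraries. Adora2a, the adenosine receptor of striatal projection neurons, had 35, 4.7 and 0.771 FPKM in thalamus-high and 2.16, 1.28 and 5.21 FPKM in thalamus-low, so that only TBI 3 exceeded C-β-LG/DSF 1. Among Sham libraries it was 14.7 FPKM in Sham 3 and under 2 FPKM in both others, and the striatal list mean was 0.86 in Sham 3 against -0.52 and -0.35 in Sham 1 and Sham 2.

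Drd2, the D2 dopamine receptor gene shared by striatal and dopaminergic neurons, had 17.2, 6.22 and 4.21 FPKM in thalamus-high and 0.612, 0.50 and 1.82 FPKM in thalamus-low. Tac1, which encodes the precursor of substance P, had 34.4, 32 and 16.2 FPKM in thalamus-high and 1.93, 3.82 and 8.17 FPKM in thalamus-low. Unlike Adora2a, these 2 did not overlap between the sets (2.59 for Drd2 and 2.57 for Tac1). Drd1, the D1 receptor gene, had 8.31, 2.65 and 2.21 FPKM in thalamus-high and 1.14, 2.87 and 4.01 FPKM in thalamus-low, which overlapped.

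Pmch, the precursor of melanin-concentrating hormone from the lateral hypothalamus, had 9.62, 1.44 and 0.634 FPKM in thalamus-high and 0, 0.21 and 0.395 FPKM in thalamus-low. Of 22 hypothalamic genes 9 passed the filter and Pmch was the only one 2-fold higher without overlap, beside 1.45% of all genes. Pmch was under 0.5 FPKM in every thalamus-low library and so passed the filter only through thalamus-high, which leaves nothing to read from this. The hypothalamic list as a whole did not set TBI 3 apart: its mean relative to Sham was 0.67 in TBI 3, 0.53 in C-β-LG/DSF 2 and 0.26 in C-β-LG/DSF 3, against -0.07, 0.03 and 0.31 in the thalamus-low libraries, and its summed level was 33.8 FPKM in TBI 3 and 34.8 FPKM in C-β-LG/DSF 2. Hcrt, the other defining peptide of that region, was at most 0.496 FPKM in any library. Ttr, transthyretin of the choroid plexus, had 270.0, 1.53 and 1.06 FPKM in thalamus-high, 37, 0.13 and 1.48 FPKM in thalamus-low and 0.0655, 1.14 and 7.4 FPKM in Sham. TBI 3 and TBI 1 were therefore the libraries high in Ttr, one in each set. The ependymal genes Tmem212 and Ccdc153 were highest in TBI 3, at 5.45 and 5.51 FPKM, against at most 1.16 and 0.993 FPKM in thalamus-low.

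**Figure D2:**
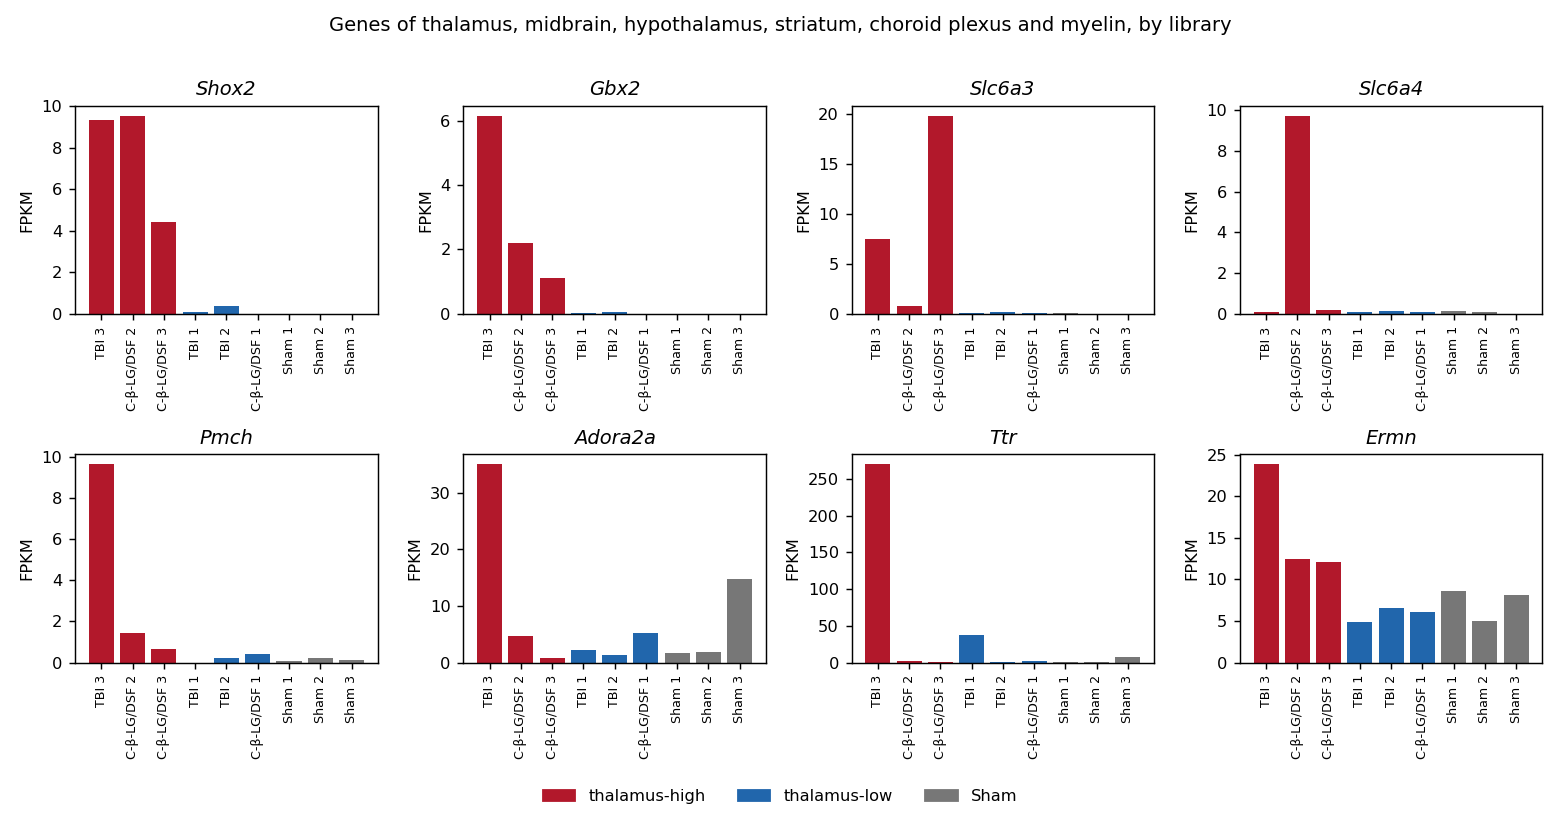
FPKM (vertical axis, from 0) of 8 genes in each of the 9 libraries (bars), coloured by set. Shox2 and Gbx2 were high in all 3 thalamus-high libraries, whereas Slc6a3 was highest in C-β-LG/DSF 3, Slc6a4 in C-β-LG/DSF 2, and Pmch, Adora2a and Ttr in TBI 3.

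Several of the largest differences fell outside these lists. Irx2, an Iroquois homeobox gene, had 5.02, 5.55 and 3.84 FPKM in thalamus-high and 0, 0.277 and 0 FPKM in thalamus-low. Dlk1, a Delta-like protein gene, had 9.94, 12.3 and 14.3 FPKM in thalamus-high and 0.631, 0.54 and 2.43 FPKM in thalamus-low. Slc10a4, a vesicular transporter-like gene of cholinergic and monoaminergic neurons, had 4.33, 4.21 and 4.24 FPKM in thalamus-high and 0.238, 0.365 and 0.399 FPKM in thalamus-low. Slc10a4 was nearly equal in the 3 thalamus-high libraries, unlike Slc6a3 and Th. Ddc, the decarboxylase that completes dopamine and serotonin synthesis, had 12.7, 15.2 and 21.9 FPKM in thalamus-high, 2.74, 3.21 and 1.94 FPKM in thalamus-low and 3.18, 2.94 and 2.33 FPKM in Sham.

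Glial genes with a regional bias also separated the sets. All 4 genes of non-telencephalic astrocytes were at least 2-fold higher in thalamus-high with no overlap, beside 1.45% of all genes. Agt, angiotensinogen, had 54.4, 57 and 47.4 FPKM in thalamus-high, 5.19, 13.2 and 10.5 FPKM in thalamus-low and 1.69, 3.27 and 2.38 FPKM in Sham, so thalamus-low also exceeded Sham. The GABA transporter gene Slc6a11 (1.40), the glycine transporter gene Slc6a9 (1.21) and Itih3 (1.26) were the others. Etnppl, a phospho-lyase gene of astrocytes, had 14.9, 10.2 and 8.24 FPKM in thalamus-high and 0.992, 2.63 and 1.18 FPKM in thalamus-low. The telencephalic astrocyte genes Lhx2 (-0.61) and Mfge8 (-0.36) had negative differences. The 16 homeostatic astrocyte genes, by contrast, had a median difference of 0.06, and none was 2-fold apart.

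Myelin genes were higher in thalamus-high. All 20 listed genes had a positive difference, 17 did not overlap (12.2% of all genes) and 12 were at least 2-fold higher (1.45% of all genes), with a median of 1.10. Ermn, which encodes the myelin protein ermin, had 23.9, 12.5 and 12.1 FPKM in thalamus-high, 4.91, 6.58 and 6.08 FPKM in thalamus-low and 8.55, 5.01 and 8.15 FPKM in Sham (difference 1.33). TBI 3 was the highest of all 9 libraries, and thalamus-low and Sham overlapped. Ugt8a (1.31) and Mobp (1.26) showed the same order of sets. The transcription factor gene Sox10 (0.37) and Apod (0.09) overlapped, and the 14 genes of oligodendrocyte precursors had a median of 0.07. Tcf7l2, which precursors and newly formed oligodendrocytes also express, is on that list.

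Ion channels of relay cells differed less than their regional genes. Among 19 genes of T-type calcium, HCN and relay potassium channels 12 were higher without overlap (12.2% of all genes), but Hcn4, the pacemaker channel gene, was the only one at least 2-fold higher (1.45% of all genes). It had 3.21, 3.23 and 1.91 FPKM in thalamus-high and 0.54, 1.32 and 1.37 FPKM in thalamus-low. Among 13 measured GABA-A receptor subunit genes, Gabrb2 had 21.8, 23.4 and 20.3 FPKM in thalamus-high, 1.37, 3.39 and 14 FPKM in thalamus-low and 3.05, 6.63 and 17.3 FPKM in Sham. Its level varied widely within thalamus-low and Sham, with the lowest values in TBI 1 and Sham 1.

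Genes of the Wnt pathway differed in both directions. Of 40 measured genes 8 were higher without overlap (12.2% of all genes) and 5 lower (11.6%), and the median difference was -0.05. At least 2-fold higher were 3 (1.45% of all genes) and lower none. One of the 3 was Tcf7l2, which was used to form the sets. The others were Sfrp5, a secreted Wnt antagonist gene (5.66, 4.28 and 3.75 FPKM in thalamus-high, 0.647, 0.391 and 0.58 FPKM in thalamus-low), and the ligand gene Wnt3 (3.09, 2.52 and 1.38 FPKM in thalamus-high, 0.348, 0.651 and 0.541 FPKM in thalamus-low). Ctnnb1, β-catenin itself, had 203, 200.4 and 176 FPKM in thalamus-high and 204, 192 and 208 FPKM in thalamus-low, and Axin2, a feedback target of the pathway, had 11.2, 9.3 and 10.5 FPKM in thalamus-high and 10.1, 7.65 and 11.3 FPKM in thalamus-low; both overlapped between the sets and were chosen for mention after their values were seen. In the 250 bases before the gene start in RefSeq, the TCF and LEF core motif CTTTGAT (either strand) was found in 4 of the 162 genes higher in thalamus-high that have a promoter in the table (2.47%), in 2.77% of measured genes, and in none of the 18 relay genes with an entry. This says only that these letters are not in those windows.

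Of the 34 gene lists, that of the cell cycle held the most genes at least 2-fold lower in thalamus-high without overlap. Of 20 cell cycle genes, all had a negative difference, 10 did not overlap (11.6% of all genes) and 8 were at least 2-fold lower (0.459% of all genes), with a median of -1.05. The kinase gene Aurkb had 1.51, 0.32 and 2.32 FPKM in thalamus-high, 8.94, 2.71 and 2.6 FPKM in thalamus-low and 0.136, 0.072 and 0.144 FPKM in Sham. The ribonucleotide reductase gene Rrm2 had 2.94, 1.43 and 3.77 FPKM in thalamus-high, 16, 5.82 and 4.81 FPKM in thalamus-low and 0.448, 0.401 and 0.536 FPKM in Sham. For both genes Sham was below every injured library, C-β-LG/DSF 2 was the lowest injured library and TBI 1 the highest. The mitotic genes Ube2c (-1.41), Ccnb1 (-1.31), Cdk1 (-1.28), Ckap2 (-1.40), Pbk (-1.37) and Psrc1 (-1.35) were also lower without overlap. Psrc1 did not share the order with Sham: it had 3.08, 4.34 and 5.96 FPKM in thalamus-high, 12.6, 13.8 and 9.42 FPKM in thalamus-low and 11.3, 10.2 and 9.64 FPKM in Sham. Without TBI 1 the median of the cell cycle list was -0.53.

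The promoters of the cell cycle genes are shown because these genes differed together and are known for sharing promoter elements, the CCAAT box and the cell cycle homology region. CCAAT (either strand) was found in the 250 bases before the start of 14 of 17 listed genes with a RefSeq promoter (82.4%), against 37.5% of all 27025 genes with a promoter. The letters TTTGAA (either strand), the core of the homology region, were in 7 of the 17 (41.2%), against 18.3% of all promoters, and both motifs together were in 41.2% against 7.34%. Among measured genes with a promoter, CCAAT was in 40.3%, TTTGAA in 12.6% and both in 5.84%. TTTGAA shares letters with the TCF and LEF core above. Below, capitals mark CCAAT and TTTGAA or their reverse complements, and each sequence runs 5′ to 3′ on the gene's strand to the base before the start (GRCm38.p6).
Ube2c, plus strand, chr2:164769679-164769928: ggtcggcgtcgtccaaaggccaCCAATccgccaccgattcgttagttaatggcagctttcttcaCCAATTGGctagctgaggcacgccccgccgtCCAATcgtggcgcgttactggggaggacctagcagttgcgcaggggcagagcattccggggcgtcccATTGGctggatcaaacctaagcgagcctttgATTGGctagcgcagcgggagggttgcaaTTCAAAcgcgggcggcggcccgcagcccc
Cdk1, minus strand, chr10:69352913-69353162: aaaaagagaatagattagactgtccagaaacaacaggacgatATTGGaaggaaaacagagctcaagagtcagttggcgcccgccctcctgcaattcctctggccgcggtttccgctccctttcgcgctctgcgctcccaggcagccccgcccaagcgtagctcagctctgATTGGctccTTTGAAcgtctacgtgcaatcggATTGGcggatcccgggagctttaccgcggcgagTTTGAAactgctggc
Top2a, minus strand, chr11:99024190-99024439: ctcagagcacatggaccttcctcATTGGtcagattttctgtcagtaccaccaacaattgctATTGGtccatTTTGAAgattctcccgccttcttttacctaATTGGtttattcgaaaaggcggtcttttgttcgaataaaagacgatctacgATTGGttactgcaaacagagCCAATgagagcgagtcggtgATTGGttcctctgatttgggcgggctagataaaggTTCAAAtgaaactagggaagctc
Top2a, the mitotic topoisomerase gene, had 1.98, 0.646 and 2.55 FPKM in thalamus-high and 7.53, 2.58 and 4.03 FPKM in thalamus-low. In all 3 genes at least 1 TTTGAA lies near the start, and CCAAT occurs more than once. A match of letters is a description and not a binding site.

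Phagocyte and astrocyte injury genes lay above Sham in all 6 injured libraries, on average less so in thalamus-high. All 23 phagocytic microglia genes had a negative difference, but only 3 did not overlap, a share near the 11.6% of all genes, and 2 were at least 2-fold lower (0.459% of all genes). The median was -0.69, and -0.44 without TBI 1. Spp1, osteopontin, had 298, 73.5 and 254 FPKM in thalamus-high, 1345, 372 and 301 FPKM in thalamus-low and 0.509, 2.15 and 0.356 FPKM in Sham. The list mean relative to Sham was 2.23, 1.40 and 2.24 in thalamus-high, against 3.31, 2.7 and 2.11 in thalamus-low, so C-β-LG/DSF 1 lay within the thalamus-high range. Gpnmb (-1.63) and Lgals3 (-1.59), genes of lipid-laden phagocytes, had large differences but overlapped.

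Reactive astrocyte genes had a median difference of -0.74, which was -0.30 without TBI 1. Vim, the intermediate filament vimentin, had 134, 51.5 and 139 FPKM in thalamus-high, 489, 174 and 184 FPKM in thalamus-low and 16.7, 18.4 and 14 FPKM in Sham. Tgm1, a transglutaminase gene, had 3.92, 1.81 and 6.83 FPKM in thalamus-high and 39.4, 11.1 and 6.59 FPKM in thalamus-low, which overlapped. Among monocyte and macrophage genes (median -0.61, and -0.23 without TBI 1), S100a6 (-1.28) and S100a4 (-1.36) did not overlap; S100a4 shares exons with a predicted gene. Of the other genes named for their size, the aspartic protease gene Ctse had 0.226, 0.522 and 0.231 FPKM in thalamus-high and 2.38, 5.13 and 1.59 FPKM in thalamus-low. The matrix protein gene Thbs1 (-1.47), the myeloid membrane genes Ms4a6d (-1.34) and Tmem106a (-1.37), and the calcium-binding protein gene Ocm (-1.55) followed. Pagr1a (-1.64) overlaps its copy Pagr1b on the same strand and is uncertain.

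Pyroptosis genes, in which the study was interested, had a median difference of -0.53 over 17 measured genes, and -0.24 without TBI 1. None was 2-fold apart without overlap. Gsdmd, the pore-forming gasdermin, had 4.19, 2.99 and 3.4 FPKM in thalamus-high, 8.34, 4.69 and 3.33 FPKM in thalamus-low and 1.21, 1.25 and 1.1 FPKM in Sham. Casp1, the caspase that cleaves it, had 1.08, 1.84 and 2.38 FPKM in thalamus-high, 3.32, 3.13 and 2.17 FPKM in thalamus-low and 1.34, 1.0 and 1.31 FPKM in Sham. For both, the sets overlapped.

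The inflammasome sensor gene Nlrp3 had 0.514, 0.463 and 0.616 FPKM in thalamus-high and 1.78, 0.917 and 0.546 FPKM in thalamus-low, again with overlap. Pycard, the inflammasome adaptor gene, had 6.86, 2.4 and 3.98 FPKM in thalamus-high and 27.7, 10.6 and 4.18 FPKM in thalamus-low, with TBI 1 far above the others. The cytokine gene Il18 did not follow the sets (-0.05), and Il1b, with at most 1.35 FPKM in any library, did not pass the filter. The chemokine gene Ccl2 had 1.14, 0.371 and 0.909 FPKM in thalamus-high and 7.12, 2.0 and 1.18 FPKM in thalamus-low without overlap. The median of the 12 measured cytokine and chemokine genes was -0.48, and -0.07 without TBI 1.

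**Figure D3:**
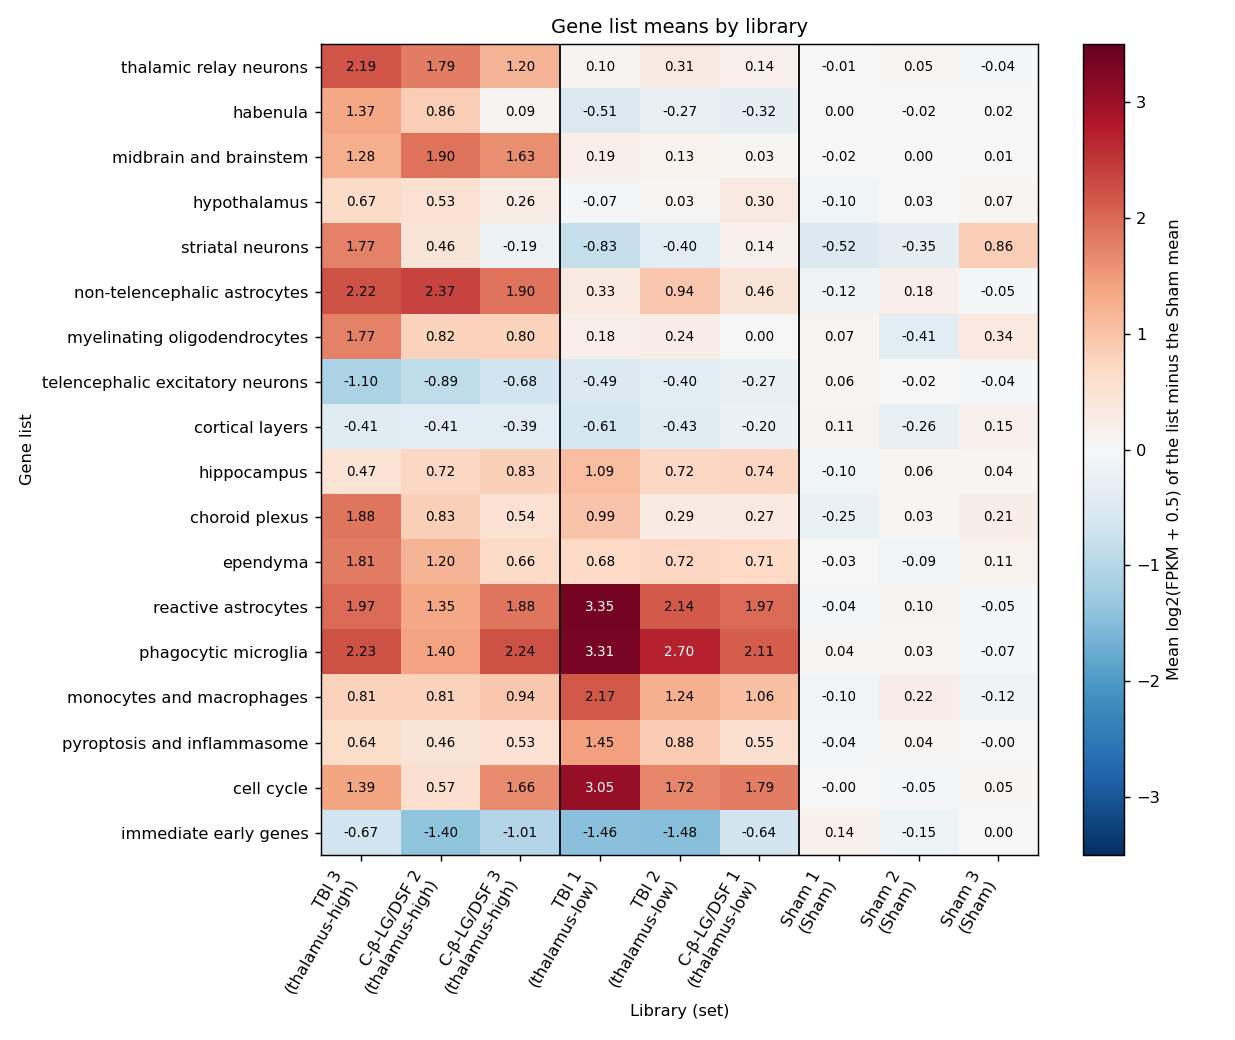
Mean log2(FPKM + 0.5) of 18 gene lists (vertical axis) in the 9 libraries (horizontal axis), each relative to the Sham mean of its genes, with the value printed in each cell and vertical lines between the sets. Thalamic relay, midbrain and non-telencephalic astrocyte lists are highest in the 3 thalamus-high libraries, while reactive astrocyte, phagocyte and cell cycle lists are highest in TBI 1.

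The differences between the sets were also taken within each label. Genes without overlap necessarily keep their sign in both labels, so the comparison is informative only for lists that did not separate. Most relay, myelin and midbrain genes did not overlap between the sets. The sign of these 3 medians was thus fixed in advance, and only their sizes are given. The relay list had a median difference of 1.91 within TBI (TBI 3 minus the mean of TBI 1 and TBI 2) and 1.10 within C-β-LG/DSF (the mean of 2 and 3 minus 1). Myelin genes had 1.66 within TBI and 0.81 within C-β-LG/DSF. Midbrain genes had 1.34 within TBI and 2.21 within C-β-LG/DSF. Striatal genes had 2.12 within TBI and -0.29 within C-β-LG/DSF, which are opposite signs. Phagocytic microglia genes had -0.80 within TBI and -0.23 within C-β-LG/DSF. Each of these rests on 1 library on 1 side, and none was tested.

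**Figure D4:**
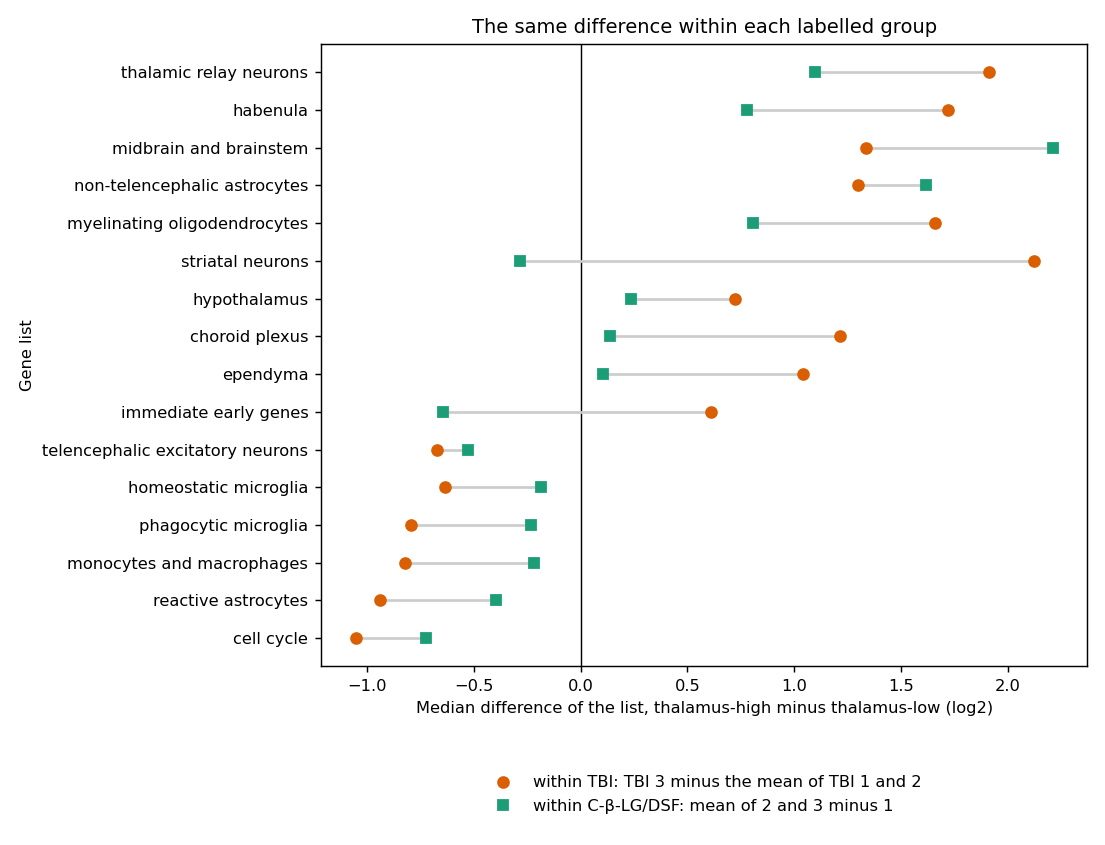
Median log2 difference, thalamus-high minus thalamus-low (horizontal axis), of 16 gene lists (vertical axis) within TBI (circles) and within C-β-LG/DSF (squares), joined by grey lines. Thalamic relay, midbrain and myelin lists lie right of 0 in both labels, which was fixed in advance because most of their genes did not overlap between the sets. The cell cycle list lies left of 0 in both, and striatal and immediate early genes lie on opposite sides.

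The labelled comparisons do not use the marker genes to form groups and can be tested. Between C-β-LG/DSF and TBI, limma with Benjamini-Hochberg adjustment called 0 of 14292 genes (0%; 1693 had an unadjusted p under 0.05, and the smallest adjusted p was 0.361). Fitted to the 6 injured libraries with the set as a covariate it again called 0 (1244 genes at an unadjusted p under 0.05, smallest adjusted p 0.566). Accordingly no member of any list was called for this comparison. That does not show equal levels: for Gsdmd the difference with the set in the model was -0.58, with a 95% interval of -1.19 to 0.02 (limma adjusted p = 0.569). Gsdmd had 2.99, 3.40 and 3.33 FPKM in C-β-LG/DSF 2, 3 and 1, against 4.19, 8.34 and 4.69 FPKM in TBI 3, 1 and 2. The labelled groups did not overlap, with 3.40 and 4.19 FPKM as the closest values. The share of all genes without overlap between these labels was not computed, so nothing further is read from this. Casp1 had a difference of 0.12 (95% interval -0.59 to 0.82), Nlrp3 -0.37 (-1.10 to 0.36) and Il18 -0.07 (-0.57 to 0.42) in the same fit, with limma adjusted p of 0.901, 0.693 and 0.912.

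The genes of smallest p with the set in the model did not pass (limma adjusted p = 0.566 for each). Adgrg5, an adhesion receptor gene, had 1.13, 0.969 and 1.24 FPKM in C-β-LG/DSF 2, 3 and 1, against 2.72, 3.57 and 3.33 FPKM in TBI 3, 1 and 2. Cdhr1, a cadherin-related gene, had 6.13, 3.43 and 4.41 FPKM in C-β-LG/DSF 2, 3 and 1, against 1.28, 0.794 and 0.820 FPKM in TBI 3, 1 and 2. In both, the labels separated within thalamus-high and within thalamus-low alike. A choice by smallest p with the set in the model favours such genes, so nothing further is read from it. The others were the splicing factor gene Cwc22 (-2.86), which has near-identical copies in the mouse genome and is uncertain, Mas1 (0.93), a receptor gene of the angiotensin system, Rtn4rl2 (0.62), a Nogo receptor family gene, and the predicted gene Gm6594, which was listed at 0 in all C-β-LG/DSF libraries and at 0.778 to 1.22 FPKM in TBI.

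How C-β-LG/DSF compared with TBI for a gene list depended on which libraries were set side by side. Myelin genes had a median difference, C-β-LG/DSF minus TBI, of -1.0 within thalamus-high (C-β-LG/DSF 2 and 3 minus TBI 3), -0.21 within thalamus-low (C-β-LG/DSF 1 minus TBI 1 and 2) and -0.16 over all 6. Striatal genes had -1.63 within thalamus-high, 0.74 within thalamus-low and -0.10 over all 6. Relay genes had -0.57 within thalamus-high, -0.07 within thalamus-low and 0.09 over all 6.

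The injury lists had negative medians in both sets. Phagocytic microglia genes had -0.33 within thalamus-high, -0.89 within thalamus-low and -0.76 over all 6. Reactive astrocyte genes had -0.42 within thalamus-high, -0.79 within thalamus-low and -0.84 over all 6. Pyroptosis genes had -0.28 within thalamus-high, -0.63 within thalamus-low and -0.51 over all 6. The 2 C-β-LG/DSF libraries of thalamus-high were not alike. The phagocytic list mean relative to Sham was 2.23 in TBI 3, 1.40 in C-β-LG/DSF 2 and 2.24 in C-β-LG/DSF 3. In the same order, the mean was 1.97, 1.35 and 1.88 for reactive astrocyte genes and 0.64, 0.46 and 0.53 for pyroptosis genes. These medians describe 1 library against 2 in each set and were not tested.

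**Figure D5:**
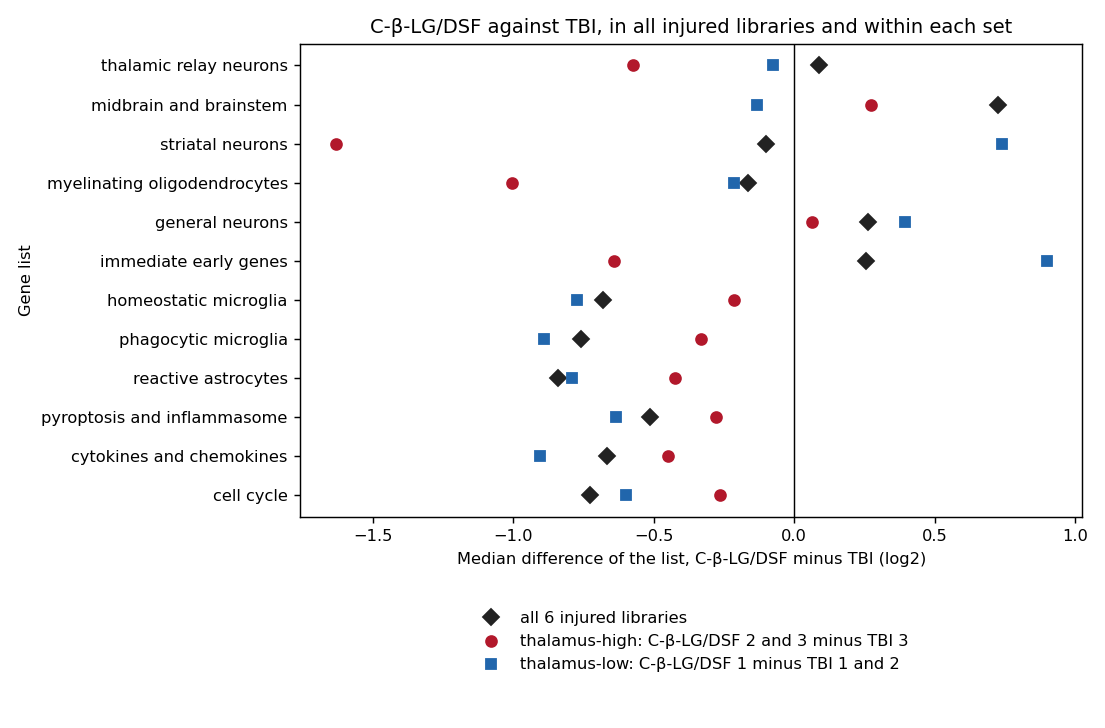
Median log2 difference, C-β-LG/DSF minus TBI (horizontal axis), of 12 gene lists (vertical axis) in all 6 injured libraries (diamonds), within thalamus-high (circles) and within thalamus-low (squares). Striatal and immediate early genes lie on opposite sides of 0 in the 2 sets, and the phagocytic microglia list lies left of 0 in all 3.

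How many thalamic genes passed against Sham depended on which injured libraries entered. In TBI against Sham limma called 2127 genes higher (14.9%) and 1709 lower (12%), together 26.8%; of the 20 relay genes 2 (10%) were called higher and none lower. Between C-β-LG/DSF and Sham it called 911 higher (6.37%) and 984 lower (6.88%), and again 2 relay genes higher. Without the thalamus-low libraries 17 of the 20 were called higher in TBI against Sham (13% of all genes) and, for C-β-LG/DSF, 16 of the 20 (13.8% of all genes). The libraries kept there were chosen for high levels of 4 of these genes, so these counts are a description only, and the TBI one rests on TBI 3 alone. Without the thalamus-high libraries 3 were called higher and 3 lower in TBI against Sham (13.9% and 11.7% of all genes), and only 1 relay gene was called higher (0.994% of all genes) and none lower (0.903%) for C-β-LG/DSF, of which 1 library was then left. The 2 called with all libraries were Prkcd, with a log2 difference of 2.5 (SE 0.51, limma adjusted p = 0.00733) in TBI and 2.05 (SE 0.51, limma adjusted p = 0.0285) in C-β-LG/DSF, and Lhx9, with 2.06 (SE 0.50, limma adjusted p = 0.0155) in TBI and 2.66 (SE 0.50, limma adjusted p = 0.0101) in C-β-LG/DSF. Both genes were above every Sham library in all 6 injured libraries. Without the thalamus-high libraries, which leaves 1 C-β-LG/DSF library, the difference from Sham was 1.25 for Prkcd and 1.71 for Lhx9. Prkcd is 1 of the 4 genes that decided which libraries were left out, so its smaller difference follows from that choice. Tcf7l2 did not pass in TBI against Sham, with a difference of 1.54 and a 95% interval of -0.66 to 3.74 (limma adjusted p = 0.277), nor in C-β-LG/DSF against Sham, with 2.14 and a 95% interval of -0.06 to 4.34 (limma adjusted p = 0.179).

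Agt passed in both: its difference was 2.5 (SE 0.81, limma adjusted p = 0.0484) in TBI against Sham and 3.44 (SE 0.81, limma adjusted p = 0.0244) in C-β-LG/DSF against Sham. Without the thalamus-high libraries the TBI difference was 1.62 (SE 0.40, limma adjusted p = 0.032), and the C-β-LG/DSF difference of 1.94 (SE 0.51, limma adjusted p = 0.121) did not pass. All 23 phagocytic microglia genes were called higher in TBI against Sham, where 14.9% of all genes were. The count was 23 without the thalamus-high libraries, where 13.9% of all genes were called higher. Without the thalamus-low libraries only TBI 3 was left, and the median difference of the list was 1.825. For C-β-LG/DSF against Sham 16 of the 23 were called, where 6.37% of all genes were. The count was 19 without the thalamus-low libraries, where 13.8% of all genes were called higher. Without the thalamus-high libraries only C-β-LG/DSF 1 was left, and the median difference of the list was 1.668.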

How the data were processed

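RNA of mouse brain tissue was sequenced in 9 libraries, 3 each of C-β-LG/DSF, TBI and Sham. Per the submitters' processing notes the tools were HISAT2 2.1.0 and Cufflinks 2.2.1; the sources used here give neither the genome build, nor the annotation, nor the use of strand in counting. The authors deposited FPKM per gene and library with an interval around each value. Of 22482 genes in the table, 22452 identifiers are in GENCODE M21 (GRCm38), 26 symbols that had become dates were looked up by identifier, 1 line without values was left out, and 11 genes carried a failed status in some library. Positions are as deposited.

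The members and the 34 gene lists were chosen with earlier results of these data known, since the sets were made from them. The 2 sets of injured libraries were compared as mean log2(FPKM + 0.5) over genes with an FPKM of at least 0.5 in at least 3 of the 6 libraries. A gene counted as higher or lower when the means differed at least 2-fold and no library of 1 set overlapped the other. No test was run on this contrast. Named genes are the 15 with the largest difference in each direction (in the higher set a mean FPKM of 1 or more, no overlap, predicted genes passed over), all relay genes, and in each list described the 2 to 4 members with the largest difference, with the Slc17 transporters, Gsdmd, Casp1, Nlrp3, Il1b and Il18; some genes chosen this way are not reported here, and a few others are said to be outside the rule, and further members are shown where libraries of 1 set differ. Genes most correlated with the markers were not sought, because the 6 libraries fall into separate sets.

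Labelled groups were compared with limma 3.58.1 in R 4.3.3 on log2(FPKM + 0.5) of the 9 libraries, with a mean trend of the variance, two-sided, and Benjamini-Hochberg adjustment over 14292 genes at 0.05. For a single gene, an exact two-sided permutation test of 3 against 3 libraries has 0.1 as its smallest p. For C-β-LG/DSF against TBI, the set was added as a covariate in the 6 injured libraries, and the 3 genes of smallest p in each direction are named. Since the set was made from the same libraries, p-values of that fit are conditional on it. The fits were tested on simulated data. Alternatives were other pseudocounts, filters and scalings, a replicate block, leaving out each library and leaving out each set. Promoters are from RefSeq on GRCm38.p6 and were matched by symbol. Tables were handled in Python 3.11.15 with pandas 2.3.3 and drawn with matplotlib 3.10.9.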

Additional observations from a re-analysis of the deposited data

Results flagged for a closer look

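In 4 results the difference between the sets had opposite signs in the labelled groups, with TBI 3 above both TBI 1 and TBI 2 while C-β-LG/DSF 2 and 3 both lay below C-β-LG/DSF 1. Immediate early genes, which neurons switch on with activity, had a mean difference of 0.80 between thalamus-high and thalamus-low within TBI and -0.57 within C-β-LG/DSF. Their list means relative to Sham were -0.67 in TBI 3, -1.4 in C-β-LG/DSF 2 and -1.01 in C-β-LG/DSF 3, against -1.46 in TBI 1, -1.48 in TBI 2 and -0.64 in C-β-LG/DSF 1, so TBI 3 and C-β-LG/DSF 1 were the highest injured libraries, 1 in each set. Npas4, the activity-dependent transcription factor gene of that list, had a difference of 2.23 within TBI and -0.76 within C-β-LG/DSF. Its levels were 12.6, 4.34 and 4.84 FPKM in thalamus-high, 2.33, 2.21 and 8.10 FPKM in thalamus-low and 18.9 to 22.9 FPKM in Sham.

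GABAergic neuron genes had a mean difference of 0.33 within TBI and -0.19 within C-β-LG/DSF. Genes of cortical layers had 0.11 within TBI and -0.20 within C-β-LG/DSF. In each case 1 library stands alone on 1 side, and the difference between the labels was not tested.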

How the results depend on the processing

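The count of 270 genes at least 2-fold apart between the sets was 424 with a pseudocount of 0.1 and 179 with a pseudocount of 1. Leaving out 1 library gave 207 (without TBI 1) to 577 (without C-β-LG/DSF 1) and 474 without C-β-LG/DSF 3; with fewer libraries it is easier not to overlap. The share of these genes that were higher was 75.9%, and 88.9% without TBI 1, 49.7% without C-β-LG/DSF 1, 61% without TBI 3, 64.1% without TBI 2 and 65.4% without C-β-LG/DSF 3. Of 1343 values of the 104 named genes under the alternatives, 27 moved by 1 SD or more, in 16 genes. A change of sign was sought only in named genes at least 2-fold apart without overlap, and 0 were found. For such genes only quantile normalization and equal totals could change the sign. Under the other alternatives the sign was fixed in advance, so the 0 says little of how stable these genes are.

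For C-β-LG/DSF against TBI the count of 0 was 2 with no filter, and 0 to 2 when 1 library was left out (2 without TBI 3, 1 without C-β-LG/DSF 1). TBI against Sham gave 3836, with 2242 (without Sham 3) to 4373 (without TBI 3) on leaving out 1 library, 2388 without Sham 1 and 2550 without Sham 2; by quantile normalization it was 1581 higher and 1895 lower. C-β-LG/DSF against Sham gave 1895, with 271 without the thalamus-high libraries, which leaves 1 C-β-LG/DSF library assumed to vary like the rest, 3828 without the thalamus-low libraries, and 660 (without C-β-LG/DSF 3) to 2931 (without TBI 1) on leaving out 1 library. It was 996 without C-β-LG/DSF 2, and 825, 971 and 794 without Sham 1, 2 and 3. With equal totals it was 1323 higher and 704 lower. Where no construction is named, the cause was not tested.

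The difference of Casp1, C-β-LG/DSF minus TBI, was -0.10 and changed sign to 0.0079 by quantile normalization, 0.024 with the marker mean as a covariate, 0.12 with the set as a covariate, and on leaving out 1 library ranged over -0.51 (without TBI 3) to 0.13 (without TBI 1), with 0.09 without TBI 2. That of Il18 was -0.08, and on leaving out 1 library ranged over -0.27 (without C-β-LG/DSF 2) to 0.10 (without C-β-LG/DSF 3). Replicate numbers did not pair the libraries throughout. With the mean of each labelled group subtracted, the deviations of same-numbered C-β-LG/DSF and TBI libraries correlated at 0.33, -0.09 and -0.02 across genes. With the replicate block the counts were 0 for C-β-LG/DSF against TBI, 3519 for TBI against Sham and 1627 for C-β-LG/DSF against Sham. The number of fragments is not given, which limits what can be said of genes near 0 FPKM.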
